A study of Mus musculus with 4 samples.

Results

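A set of 10 genes for regulators and surface proteins of the gut endoderm was followed in whole mouse embryos lacking the orphan nuclear receptor Gcnf, now called Nr6a1. The genes were Sox17, Foxa1, Foxa2, Foxa3, Hhex, Pdx1, Shh, Epcam, Cdh1 and Cldn6, and every probe set that the platform annotation gives to one of these symbols alone was taken, which gave 14 of the 45037 probe sets tested. Sox17, Pdx1, Shh and Epcam had 2 probe sets and the other 6 had 1. Total RNA of 2 homozygous mutant embryos (labelled Gcnf-/-) and 2 wildtype embryos (labelled wt), all at embryonic day (E) 9.0, was hybridised to 1 Affymetrix mouse expression array each, without further treatment, to find genes that change when the receptor is lost. The mutation is constitutive, so that every tissue lacks the receptor, and the labels give neither strain, sex, litter nor somite number. The study's methods give a wider collection window, which begins at the labelled day. The paper also states that embryos without Nr6a1 develop more slowly once somites form and do not complete turning. Without somite numbers, a difference in stage and an effect of genotype at equal stage cannot be told apart.

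The gut endoderm is the epithelial sheet that lines the primitive gut tube and gives rise to the lining of the pharynx, lungs, liver, pancreas and intestine. Sox17, an HMG box transcription factor, is required to form definitive endoderm. The forkhead factors Foxa1, Foxa2 and Foxa3 open chromatin at endodermal genes and are expressed in overlapping domains of the gut tube. Hhex is a homeobox factor of the anterior endoderm and liver bud, and Pdx1 one of the pancreatic and duodenal endoderm. Sonic hedgehog (Shh) is secreted by the gut epithelium and signals to the surrounding mesenchyme. Epcam, Cdh1 (E-cadherin) and Cldn6 (a tight junction claudin) hold epithelial cells together. None of the 10 is confined to the gut: Sox17 and Hhex are also made in endothelium, Foxa2 and Shh in notochord and floor plate, and Epcam, Cdh1 and Cldn6 in other embryonic epithelia. In RNA of a whole embryo, a change in the number of cells of a type and a change in RNA per cell cannot be told apart.

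Values are robust multi-array average (RMA) signals on the log2 scale, on which 1 unit is a 2-fold difference. Fold changes are Gcnf-/- minus wt, each with the moderated standard error (SE) of limma, and a call required at least a 2-fold difference with an adjusted p no higher than 0.05. Arrays of a genotype correlated at r = 0.9975 for Gcnf-/- and 0.9973 for wt across probe sets, against 0.9931 to 0.9952 between genotypes. The embryo of wt replicate 1 was female by its Xist signal of 13.11, while Xist was 6.44 to 6.68 in the others. Its poly-A control RNA was lower than in the others by a log2 difference of -0.73. Probe sets for 18S ribosomal RNA read 10.83 and 10.74 in Gcnf-/- embryos, against 9.45 and 9.99 in wt embryos, a difference of 1.06 that accompanied every genotype comparison below and whose part in them was not tested. The brightest of the 5 Nr6a1 probe sets read 11.87 and 12.14 in Gcnf-/- embryos and 11.53 and 11.80 in wt embryos, higher by 0.34. The others were higher by 0.56, 0.39, 0.30 and 0.05, and none of the 5 passed the adjusted p. The position of these probes relative to the deleted sequence is not given in the sources used here, so that they do not check the genotype labels.

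Sox17 was the only one of the 10 genes that was called. It rose in Gcnf-/- embryos by both of its probe sets, 2.74-fold and 2.24-fold. Of the 14 probe sets, these 2 were called higher and 0 lower, while 0.304% of all probe sets were called higher and 0.0777% lower. Epcam passed the adjusted p by 1 of 2 probe sets with a 1.55-fold higher signal, and Pdx1 by 1 of 2 with a signal 1.73-fold lower in Gcnf-/- embryos, both short of 2-fold. The remaining 10 probe sets did not pass. In all, 12 of the 14 probe sets lay above wt and 2 below, with a median log2 fold change of 0.16, beside a median of -0.01 and 47.1% above wt over all probe sets tested. Both Gcnf-/- arrays exceeded both wt arrays for 10 of the 14, against 23.5% of all probe sets, and lay below both for 2, against 27.3%. Counted once per gene by the brightest probe set, 9 of the 10 lay above wt, beside 47.2% of all genes. Both mutants exceeded both wt embryos for 7 of the 10, against 4764 of 18193 genes, with the nearest values 0.01 apart for Cdh1. The 10 genes were chosen with earlier results of these data known, so that these shares do not test a shift of the group. With any 1 of the 4 arrays left out, no probe set that passed the adjusted p here or is named below as passing did so (lowest limma adjusted p = 0.0630, for Pou5f1 without wt replicate 2), and each kept its direction. The adjusted p then ran from 0.165 to 0.287 for the Epcam probe set and from 0.130 to 0.276 for that of Pdx1.

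**Figure D1:**
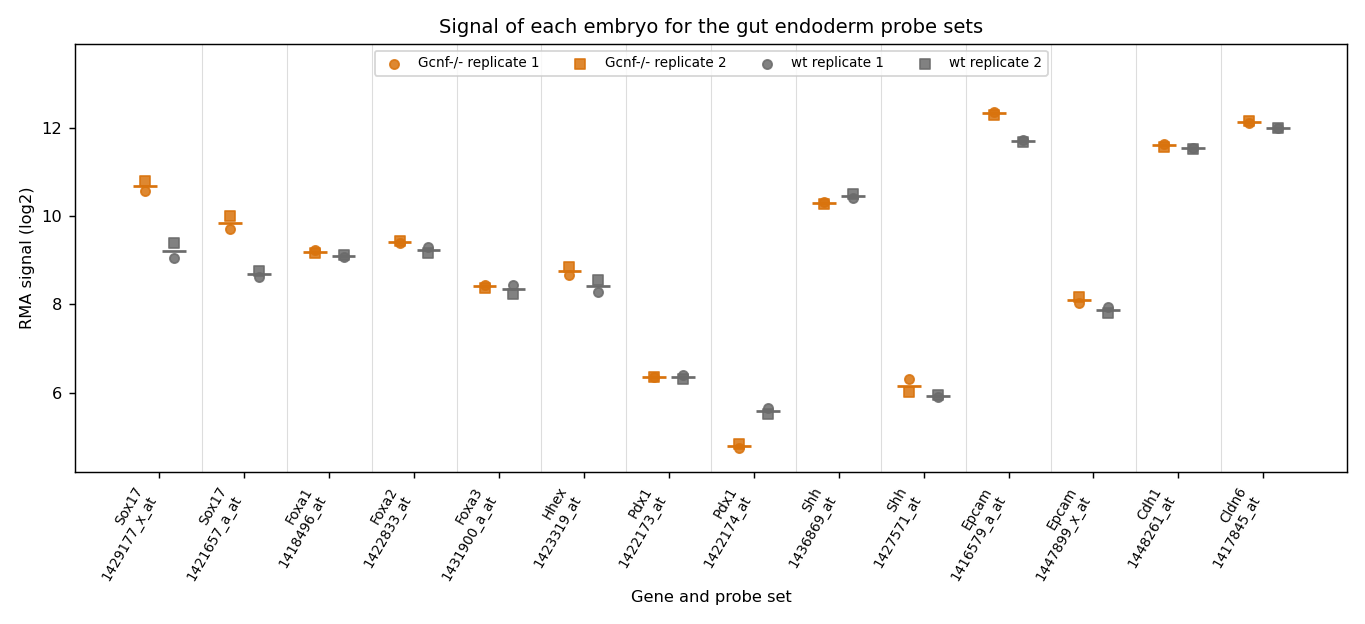
RMA log2 signal (vertical axis) of each embryo for the 14 probe sets of the 10 genes (horizontal axis); orange is Gcnf-/-, grey is wt, circles and squares are replicates 1 and 2, and horizontal bars are group means. The Sox17 probe sets show the widest gaps, with means of 10.67 in Gcnf-/- and 9.22 in wt embryos for the brighter one, and the Foxa1, Foxa3 and Cdh1 groups lie almost on top of each other.

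The brighter Sox17 probe set (1429177_x_at) read 10.56 and 10.79 in Gcnf-/- embryos, against 9.05 and 9.39 in wt embryos. Both mutants were thus above both wt embryos, and the gap between genotypes was wider than that between embryos of a genotype, which was 0.23 in Gcnf-/- and 0.34 in wt. The log2 fold change was 1.46 ± 0.14 (SE, n = 2 per genotype, limma adjusted p = 0.0338), with a 95% interval from 1.09 to 1.82. The other probe set (1421657_a_at) read 9.71 and 9.998 in Gcnf-/- embryos, against 8.61 and 8.77 in wt embryos, and gave 1.16 ± 0.12 (SE, limma adjusted p = 0.0379). Its 95% interval ran from 0.85 to 1.47 and so began below a 2-fold difference. The suffix of the first marks probes that can also bind other transcripts, and the suffix of the second marks probes shared by transcripts of 1 gene only. Averaged over both, the log2 fold change was 1.31 ± 0.12 (SE, limma adjusted p = 0.0169 over 18193 genes). Both probe sets were also called with repeated quantile normalisation, median centring, an intensity trend, robust eBayes and among brighter probe sets alone. With the replicate number as a block, neither was called (limma adjusted p = 0.156 and 0.160). With any 1 array left out, neither passed (limma adjusted p from 0.104 to 0.287), although the log2 fold changes stayed between 1.01 and 1.62. Without the female embryo, wt replicate 1, they were 1.29 and 1.08 (limma adjusted p = 0.226 and 0.287).

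The 3 forkhead factors differed little between the genotypes. Foxa1 read 9.22 and 9.17 in Gcnf-/- embryos and 9.08 and 9.12 in wt embryos. Its groups did not overlap, but the gap was small, with a log2 fold change of 0.10 ± 0.07 (SE, limma adjusted p = 0.497). Foxa2, which is also a regulator of the notochord and floor plate, read 9.38 and 9.43 in Gcnf-/- embryos and 9.31 and 9.17 in wt embryos, a difference of 0.16 ± 0.08 (SE, limma adjusted p = 0.338). Foxa3, which is expressed in the more posterior gut, read 8.43 and 8.38 in Gcnf-/- embryos and 8.45 and 8.24 in wt embryos, and its groups overlapped. The 95% intervals in fold terms were 0.947 to 1.21 for Foxa1, 0.971 to 1.29 for Foxa2 and 0.885 to 1.23 for Foxa3, so that a change of 2-fold lay outside each of them. The sign of the Foxa3 difference depended on 1 array, being 0.06 with all arrays and -0.04 without wt replicate 2.

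Of the homeobox factors, Hhex read 8.66 and 8.84 in Gcnf-/- embryos, against 8.29 and 8.55 in wt embryos. Every mutant lay above every wt embryo, but by no more than 0.11 between the nearest of them. The log2 fold change of 0.33 ± 0.12 (SE, limma adjusted p = 0.221) did not pass.

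The 2 probe sets of Pdx1 disagreed. The brighter one (1422173_at) read 6.35 and 6.36 in Gcnf-/- embryos and 6.39 and 6.31 in wt embryos, a log2 fold change of 0.00 ± 0.07 (SE, limma adjusted p = 0.994). The other one (1422174_at) read 4.74 and 4.84 in Gcnf-/- embryos, against 5.66 and 5.51 in wt embryos, and was lower by a log2 fold change of -0.79 ± 0.09 (SE, limma adjusted p = 0.0412). Of all probe sets, 0.255% were lower at that adjusted p whatever their fold. Both were dim, brighter than 42.8% and 25.2% of all probe sets, so that unspecific hybridisation makes up more of their signal. Their mean was at -0.39 ± 0.07 (SE, limma adjusted p = 0.0501 over genes).

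**Figure D2:**
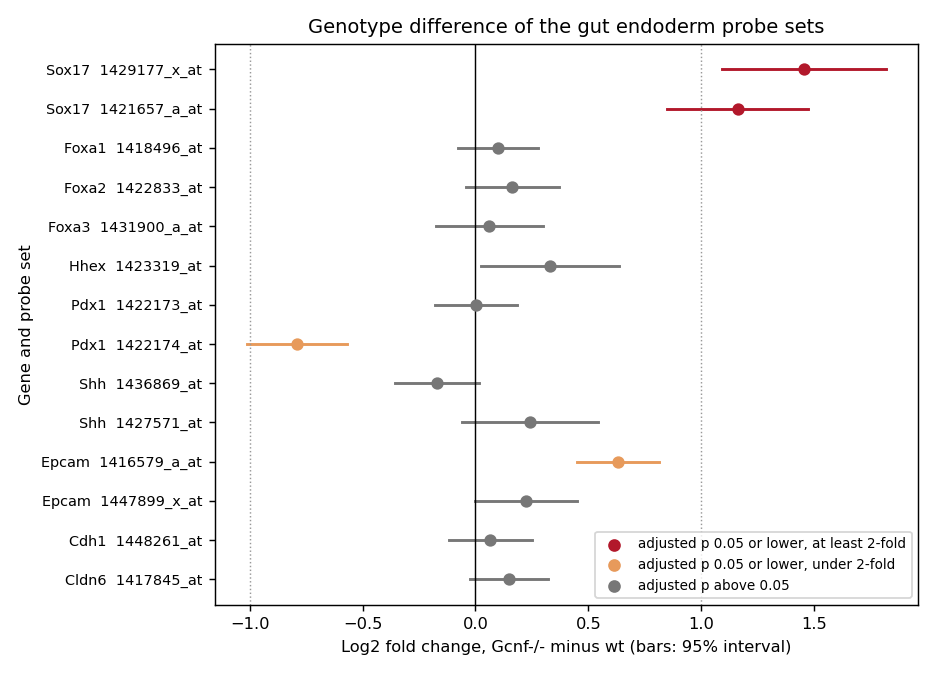
Log2 fold change of each probe set (horizontal axis, Gcnf-/- minus wt, points) with its 95% interval from limma (bars, n = 2 embryos per genotype); red marks probe sets that were called, light orange those that passed the adjusted p short of 2-fold, and dotted lines mark 2-fold. Both Sox17 points lie beyond the line at 1, and the Pdx1 points at 0.00 and -0.79 show a gene whose probe sets disagree. The Shh points at -0.17 and 0.24 lie on opposite sides of 0, and the intervals of both include 0.

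The probe sets of the ligand Shh lay on opposite sides of 0. The brighter one (1436869_at) read 10.31 and 10.28 in Gcnf-/- embryos and 10.42 and 10.51 in wt embryos, a difference of -0.17 ± 0.07 (SE, limma adjusted p = 0.280). The dimmer one (1427571_at) read 6.31 and 6.003 in Gcnf-/- embryos and 5.90 and 5.93 in wt embryos, a difference of 0.24 ± 0.12 (SE, limma adjusted p = 0.332). Neither passed, and the 95% interval of the brighter one ran from 0.782 to 1.01 in fold terms.

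Among the other genes of the hedgehog pathway, which Shh activates through its receptor Ptch1, the signal transducer Smo and the Gli transcription factors, 19 of 20 listed genes were measured and 0 were called. Of these, 10 lay above wt and 9 below, with a median log2 fold change of 0.01. By the smallest p these were led by Nkx2-2, a homeobox factor of the ventral neural tube and pancreas, which read 5.26 and 5.22 in Gcnf-/- embryos against 6.22 and 6.18 in wt embryos. It was lower by -0.96 ± 0.07 (SE, limma adjusted p = 0.0166), short of 2-fold, and was dim, brighter than 33.2% of all probe sets. The co-receptor Boc followed at 0.43 ± 0.07 (SE, limma adjusted p = 0.0746). The pathway components introduced above, given here after their values were seen, went in both directions. Gli1 stood at 0.22, Ptch1 at 0.17, Gli2 at 0.01, Smo at -0.13 and Gli3 at -0.16, and none of them passed.

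Of the epithelial surface genes, Epcam passed the adjusted p by 1 of 2 probe sets, short of 2-fold, and was not called. Cdh1 and Cldn6 did not pass. The brighter Epcam probe set (1416579_a_at) read 12.37 and 12.30 in Gcnf-/- embryos, against 11.72 and 11.69 in wt embryos. The embryos of a genotype lay within 0.07 of each other, so that the groups were well apart. The log2 fold change was 0.63 ± 0.07 (SE, limma adjusted p = 0.0414), a level that 0.719% of all probe sets reached as higher whatever their fold. The dimmer one (1447899_x_at) read 8.03 and 8.16 in Gcnf-/- embryos and 7.94 and 7.80 in wt embryos and stood at 0.22 ± 0.09 (SE, limma adjusted p = 0.252). Cdh1 read 11.64 and 11.56 in Gcnf-/- embryos and 11.54 and 11.52 in wt embryos, a difference of 0.07 ± 0.07 (SE, limma adjusted p = 0.676) with a 95% interval of 0.922 to 1.19 in fold terms. Cldn6 read 12.12 and 12.16 in Gcnf-/- embryos and 11.99 in both wt embryos. Its difference of 0.15 ± 0.07 (SE, limma adjusted p = 0.309) did not pass although the groups did not overlap.

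Of the 10 genes, 7 had a promoter window in the RefSeq table used here (GRCm38.p6, 250 bases before to 50 after the annotated start, 9 windows in all), the exceptions being Sox17, Shh and Cdh1. The window of Epcam is shown because, with each gene represented by its brighter probe set, Epcam had the smallest adjusted p of those 7. It lies at chr17:87635729-87636028 on the plus strand, and capitals mark the E-box CACCTG or its reverse complement CAGGTG, the motif that repressors of epithelial genes such as the Snai and Zeb factors bind.
Epcam promoter: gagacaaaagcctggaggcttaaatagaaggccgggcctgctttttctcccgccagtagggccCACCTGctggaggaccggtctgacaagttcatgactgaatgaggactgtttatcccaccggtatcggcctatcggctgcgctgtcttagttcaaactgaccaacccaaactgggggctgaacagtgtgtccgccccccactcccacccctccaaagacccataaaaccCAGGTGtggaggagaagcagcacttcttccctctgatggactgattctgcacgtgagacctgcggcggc
The 2 matches begin 187 and 19 bases before the start. Counting both strands, the motif was present in 5 of the 9 windows (those of Epcam, Cldn6, Foxa1, Foxa3 and Pdx1) and in 20.2% of all 32851 promoter windows. The half-site AGGTCA, the core of the elements that Nr6a1 and many other nuclear receptors bind, was in 0 of the 9 windows on either strand and in 16.3% of all windows. These are matches of letters and do not show binding.

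Genes that work with the epithelial members were not called. Of 29 listed genes for cell junctions and the epithelial state, 27 were measured, 17 lay above wt and 10 below, from -0.32 to 0.70, with a median of 0.13 beside -0.01 over all 18193 genes. Ap1m2, which sorts proteins to the basolateral membrane, stood at 0.45 ± 0.07 (SE, limma adjusted p = 0.0670) and the tight junction scaffold gene Tjp3 at 0.35 ± 0.07 (SE, limma adjusted p = 0.0970). Of 5 transcription factors that repress Cdh1, listed with the mesenchymal cadherin Cdh2, 0 were called. Zeb2 read 9.15 and 9.10 in Gcnf-/- embryos, against 7.78 and 8.46 in wt embryos, whose 2 values were far apart, and did not pass at 1.00 ± 0.22 (SE, limma adjusted p = 0.108). With an intensity trend Zeb2 was called (limma adjusted p = 0.0429). Cdh2 stood at -0.27 (adjusted p = 0.198).

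Other regulators of the endoderm were mostly not called. Of 10 further early regulators, 9 were measured, 6 lay above wt and 0 were called (median 0.19). Gata6, a zinc finger factor of endoderm and heart, read 10.04 and 10.12 in Gcnf-/- embryos, against 9.46 and 9.55 in wt embryos, a 1.49-fold difference of 0.57 ± 0.08 on the log2 scale (SE, limma adjusted p = 0.0526). Its adjusted p was 0.05 or lower in 4 alternative settings (between 0.0120 and 0.0479), still short of 2-fold. Mixl1, a homeobox factor of the primitive streak and its endoderm, stood at 1.26 ± 0.22 (SE, limma adjusted p = 0.0795). It passed at an adjusted p of 0.0266 with an intensity trend and of 0.0470 among brighter probe sets alone. Of 19 regulators of gut regions and organ buds, 18 were measured, 10 lay above wt and 8 below (median 0.07), and 1 was called. This was Hoxb13, a posterior Hox gene expressed in the hindgut. It read 8.04 and 7.91 in Gcnf-/- embryos, against 6.19 and 6.14 in wt embryos, and rose by 1.81 ± 0.08 (SE, limma adjusted p = 0.00821). In the paper, embryos with Nr6a1 deleted in axial progenitors also had Hoxb13 in tailbud mesoderm, outside the hindgut. The tissue of the rise was not tested here. Another 3 of the listed regulators, named after their values were seen, passed the adjusted p short of 2-fold. They were Ptf1a, a pancreatic and neural factor that was dim at a mean of 5.78 in Gcnf-/- and 4.84 in wt embryos (0.94, adjusted p = 0.0338), Klf5, a factor of gut epithelium (0.90, adjusted p = 0.0493), and Tbx1, a factor of the pharynx, which was lower (-0.66, adjusted p = 0.0397).

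**Figure D3:**
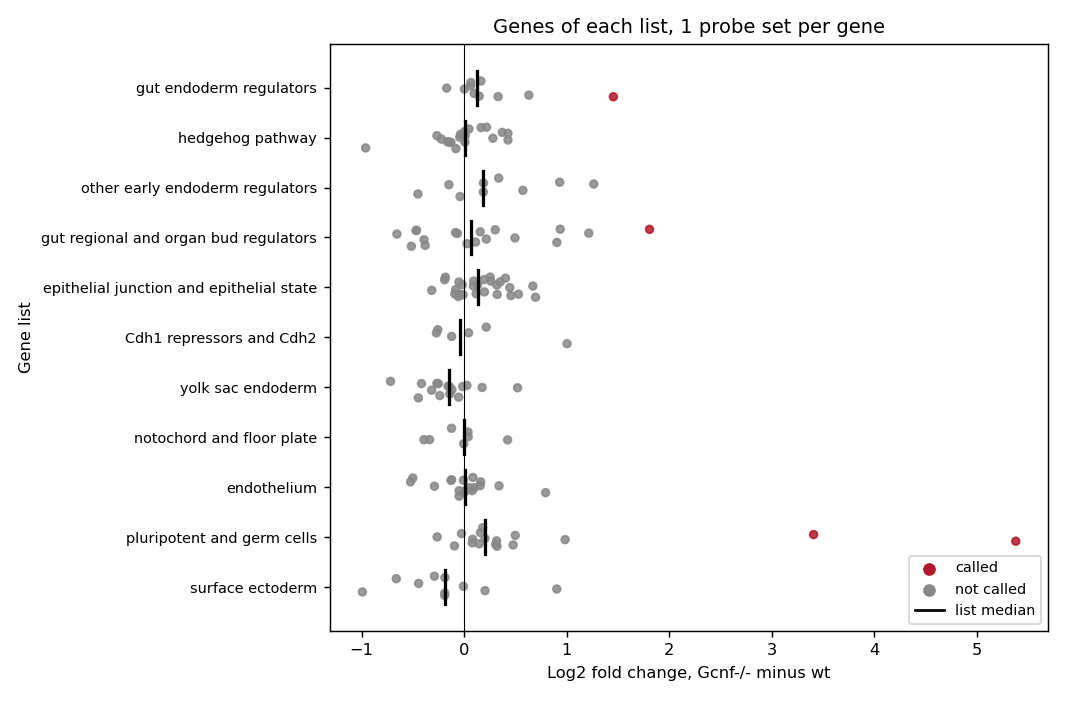
Log2 fold change (horizontal axis, Gcnf-/- minus wt) of each measured gene (points, 1 probe set per gene, n = 2 embryos per genotype) in the 10 gut endoderm genes and the related gene lists (vertical axis, points spread vertically for legibility); black bars are list medians and red points were called. The medians lie between -0.19 for surface ectoderm and 0.20 for pluripotent and germ cells, and the called genes are Sox17, Hoxb13, Nanog and Pou5f1.

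Markers of other tissues that express members of the group were measured beside them. Endothelial genes, listed because Sox17 and Hhex are made in vessels, were evenly divided, with 9 of 18 above wt, a median of 0.01 and 0 called. Cldn5, the endothelial claudin, stood at 0.79 ± 0.08 (SE, limma adjusted p = 0.0335), and Fli1, an ETS factor of endothelium and blood, at -0.52 ± 0.10 (SE, limma adjusted p = 0.0862). The mean signal of the endothelial list was 8.76 and 8.77 in Gcnf-/- embryos and 8.73 and 8.78 in wt embryos. Of 10 notochord and floor plate genes, 7 were measured and 0 called (median 0.00), with the guidance cue Ntn1 at -0.39 (adjusted p = 0.0819) and Sulf1 at -0.34 (adjusted p = 0.122).

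Genes listed for yolk sac endoderm, which shares many genes with the gut, gave a high mean signal on every array. Whether yolk sac tissue was included was not tested. The mean signal of the 16 measured genes of 18 was 12.79 and 12.62 in Gcnf-/- embryos and 12.92 and 12.82 in wt embryos. Of the 16, 13 lay below wt (median -0.15) and 0 were called. The glucose transporter gene Slc2a2 was lower at -0.72 (adjusted p = 0.0438) and the endocytic receptor gene Lrp2 stood at 0.52 (adjusted p = 0.0811). Of 17 measured pluripotent and germ cell genes, 14 lay above wt (median 0.20) and 2 were called, Pou5f1 at 5.38 ± 0.32 and Nanog at 3.41 ± 0.22 (SE, limma adjusted p = 0.0136 for each). The mean signal of this list was 7.62 and 7.81 in Gcnf-/- embryos, against 6.93 and 7.07 in wt embryos. Over the 15 genes other than Pou5f1 and Nanog it was 7.44 and 7.58 in Gcnf-/- embryos and 7.24 and 7.33 in wt embryos. Of these, Tfap2c, an AP-2 factor of germ cells and ectoderm named after its values were seen, stood at 0.99 (adjusted p = 0.0458). The paper describes Pou5f1 as repressed directly by Nr6a1 in embryonic stem cells. It also states that Pou5f1 is raised at an earlier stage in the posterior growth zone of null embryos, and in cultured Nr6a1-/- progenitors. In later tailbuds the paper could not detect Pou5f1 by qPCR, either in wildtype embryos or after conditional deletion. More Pou5f1 RNA per cell and a larger number of such cells cannot be told apart here. Pluripotent cells also express Epcam and Cdh1. Of 10 surface ectoderm genes, 8 lay below wt (median -0.19) and 0 were called, with the ligand gene Wnt6 at -0.66 (adjusted p = 0.0501) and Perp at -0.44 (adjusted p = 0.102). The part of these tissues in the Sox17 and Epcam differences was not tested.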

How the data were processed

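RNA of 2 Gcnf-/- and 2 wt whole embryos was measured on Affymetrix mouse expression arrays. Per the labels and the study's methods, the authors deposited log2 signals made with RMA (background correction, quantile normalisation and summary of probes), of unstated version. The quantile step removes shifts shared by most transcripts, and unspecific signal makes fold changes of weakly expressed genes too small. Of 45101 probe sets, 64 controls were left out. The annotation gave 34945 probe sets a single symbol, 932 several and 9160 none; of the first, 99.4% matched the RefSeq genes of GRCm38.p6 by Entrez identifier, and 0 symbols changed. A gene stood for its probe set with the highest mean signal (18193 genes).

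Genotypes were compared in R 4.3.3 with limma 3.58.1 (lmFit, eBayes), fitting genotype alone, and p-values were adjusted by Benjamini-Hochberg over 45037 probe sets. SEs are moderated (prior standard deviation 0.0849, 3.16 prior and 2 residual degrees of freedom). With 2 embryos against 2, the smallest two-sided p of an exact permutation test is 0.333, and calls therefore rest on the spread shared across probe sets. The methods describe extraction from each whole embryo. The number of arrays limits the precision. The fit was tested on simulated arrays.

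The members and lists were chosen with earlier results of these data known. Named were all probe sets of the members and, per list, each called gene or, where none was called, the 2 with the smallest p; others are said to be named later. Listed genes without a single-symbol probe set are not analysed here. Alternatives were a replicate block, each array left out, a mean signal of at least 6, repeated quantile normalisation, median centring, an intensity trend, robust eBayes, no fold threshold, other probe set choices per gene and, added after seeing the data, leaving out probe sets that share sequence.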

Additional observations from a re-analysis of the deposited data

How the results depend on the processing

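Of 151 values of the 14 probe sets under alternative settings, 136 kept their direction and their side of the call threshold, 10 lost a call and 5 changed sign. Only the 2 Sox17 probe sets had a call to lose, and all 10 losses were theirs. Calls were lost in 5 of 10 settings for 1429177_x_at and in 5 of 11 for 1421657_a_at. The Epcam and Pdx1 probe sets that passed the adjusted p were never called. They count as kept also where they no longer passed. The sign changes were in probe sets that had not passed: Pdx1 (1422173_at) at -0.0115 with repeated quantile normalisation, -0.0191 with median centring, and -0.0375 without wt replicate 2 to 0.0428 without wt replicate 1 (-0.00350 without Gcnf-/- replicate 2), and Foxa3 at -0.0405 without wt replicate 2 to 0.164 without wt replicate 1. The cause was not tested.

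With 1 array left out, a fit that gives the single embryo the spread of the other genotype, 0 of the 14 probe sets, 0 of the listed genes and 0 to 9 of all probe sets were called in limma, against 2, 3 and 172 with all arrays. Only without wt replicate 2 were there 9, of which 3 were among the 172. Of the 14, 4 to 5 had an unadjusted p under 0.05 in these fits. With the replicate number as a block, 0, 0 and 0 were called (5, 59 and 8358 at an unadjusted p under 0.05). The labels link same-numbered embryos by number alone. Their deviations correlated at 0.06 across probe sets, which does not show whether they share a litter or batch. An intensity trend gave 260 calls and 6 listed genes, and left the 2 Sox17 probe sets as they were. With that trend Boc, Ap1m2, Lrp2, Ntn1, Fli1, Wnt6 and Perp also passed, short of 2-fold (limma adjusted p from 0.0125 to 0.0456). Tjp3, Cdh2 and Sulf1 did not. Without a fold threshold there were 439 calls (324 higher, 115 lower), 4 of the 14 and 10 listed genes, by construction. Without probe sets that share sequence, 1 of the 14 was called, the other Sox17 probe set having been left out. Sox17 was the 1 gene called also as the mean of its probe sets or by the lowest p. Low signal over background limits the fold changes of dim probe sets, among them both of Pdx1, the dimmer one of Shh, and those of Nkx2-2, Ptf1a and Nanog.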
